A study of Homo sapiens with 6 samples.

Results

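The 6 genes followed here in SaOS-2 cells were chosen by symbol from the 23228 gene names of the deposited table: MKI67, which encodes the proliferation marker Ki-67, and the topoisomerase genes TOP2A, TOP2B, TOP1, TOP3B and TOP1MT. All 6 were found and all 6 passed the filter on low values, a mean of at least 10 normalized counts, which left 13255 genes for testing. SaOS-2 is an osteosarcoma cell line without functional RB or p53, and the cells carried a Tet-inducible p21 vector in all 6 libraries. The 3 p21 OFF libraries came from untreated cells and the 3 p21 ON libraries from cells given 1 μg/ml doxycycline for 24 h, as the labels give it. Cells lacking the vector but given doxycycline were not analysed here, so the drug and p21 cannot be told apart. The induced gene CDKN1A, which encodes p21, had 1187 to 1355 normalized counts in the p21 OFF libraries and 40470 to 46739 in the p21 ON libraries.

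Topoisomerases cut DNA, let strands pass or turn, and reseal the cut, so that the twist and the tangles left by replication and transcription can be removed. Type I enzymes cut 1 strand and type II enzymes cut both strands. Vertebrates have a pair of type II enzymes, TOP2A, which is made in proliferating cells and separates sister chromosomes in mitosis, and TOP2B, which is also made in resting cells and works at transcribed genes. Of the type I genes, TOP1 relaxes nuclear DNA ahead of moving polymerases, TOP1MT encodes the enzyme sent to mitochondria, and TOP3B encodes an enzyme that acts on DNA and RNA with its partner TDRD3. Ki-67 coats mitotic chromosomes and keeps them apart, and it is used in pathology to count cycling cells. The question put to the data was whether these genes answered p21 induction together or separately, and in particular whether TOP2A and TOP2B differed.

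The sequences just upstream of TOP2A, MKI67 and TOP2B are shown because the first pair fell after p21 induction and the last was not called. The CHR, with the letters TTTGAA, is the element through which the MuvB core binds G2/M promoters, and the CCAAT box, with the letters CCAAT, is bound by NF-Y. The 250 bases before the start of each canonical transcript (GENCODE release 44 on GRCh37, the build of hg19) lie at chr17:38574149-38574398 for TOP2A, chr10:129924688-129924937 for MKI67 and chr3:25706399-25706648 for TOP2B, all on the minus strand. They are written 5′ to 3′ on the strand of the gene, with capitals marking every CHR and CCAAT match on either strand (TTTGAA or TTCAAA, and CCAAT or ATTGG).
TOP2A: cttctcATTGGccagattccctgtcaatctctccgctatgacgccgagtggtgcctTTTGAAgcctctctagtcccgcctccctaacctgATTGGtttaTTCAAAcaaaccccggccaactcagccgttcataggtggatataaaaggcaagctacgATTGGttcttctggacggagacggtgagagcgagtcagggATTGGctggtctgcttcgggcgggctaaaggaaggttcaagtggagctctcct
MKI67: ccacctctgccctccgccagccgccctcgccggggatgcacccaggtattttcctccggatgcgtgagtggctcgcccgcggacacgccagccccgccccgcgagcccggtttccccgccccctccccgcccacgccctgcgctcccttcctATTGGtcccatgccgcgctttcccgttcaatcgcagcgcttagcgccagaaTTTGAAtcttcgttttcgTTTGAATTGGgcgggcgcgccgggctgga
TOP2B: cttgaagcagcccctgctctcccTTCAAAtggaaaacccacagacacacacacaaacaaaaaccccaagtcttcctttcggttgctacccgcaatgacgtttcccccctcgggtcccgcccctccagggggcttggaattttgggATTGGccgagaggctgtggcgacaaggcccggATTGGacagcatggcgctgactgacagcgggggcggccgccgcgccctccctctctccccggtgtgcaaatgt

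Counted upstream from the start of the transcript, the TOP2A window held 2 CHR matches, at bases 194 to 189 and 151 to 146, and 4 CCAAT matches. The MKI67 window held 2 CHR matches, at bases 47 to 42 and 29 to 24, and 2 CCAAT matches, of which that nearer the start shares 1 base with the CHR beside it. The TOP2B window held 1 CHR match, at bases 227 to 222, and 2 CCAAT matches. It also covers 2 bases of an exon of another TOP2B transcript and 32 bases of MIR4442. No match to either motif was found in the windows of TOP1, TOP3B or a further topoisomerase gene, TOP3A. For comparison, 19881 windows of the same length upstream of protein-coding genes were searched. A CHR match was held by 10.1%, a CCAAT match by 34.2% and both by 4.1%. At least 2 CCAAT matches were held by 11.4% and at least 4 by 1.15%. These cutoffs are the counts seen in the windows shown, and the share with at least 2 CHR matches was not computed. These matches describe letters, and binding was not measured in these libraries.

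Depth ran from 12795490 to 21975045 reads on genes a library, and the 6 genes had 383 to 12455 reads each in a library. The least similar replicates were those compared with p21 OFF replicate 1, with a chi-square per gene of 8.50 and 9.26 against 2.71 to 3.98 for the other pairs. The summed level of 9 osteoblast markers, of which 6 were tested, was 53256 to 56153 in p21 OFF and 54320 to 58566 in p21 ON libraries, led by ALPL, COL1A1, SP7 and RUNX2. Of the 6, IBSP was called, at -0.38 on the log2 scale (limma adjusted p = 0.0264). BGLAP was at 0 in all libraries, and COL1A2 and SPP1 had means under 4. Of 9 markers of other cell types, 3 were tested and none was called (0 at an unadjusted p under 0.05, limma), with a summed level of 349 to 422 in p21 OFF and 342 to 383 in p21 ON libraries, most of it EPCAM, and HBB was at 0. Scaling by library size alone gave 2034 genes higher and 1194 lower, where the reported fit gave 1393 and 1681.

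After p21 induction, 3 of the 6 genes were lower. By the estimates TOP2A fell most, MKI67 fell less and TOP1 fell slightly, whereas TOP2B, TOP3B and TOP1MT were not called. Among all 13255 genes tested, 12.7% were lower and 10.5% higher in p21 ON cells in the limma fit, where the adjusted p-value had to lie under 0.05. None of the 6 genes was called higher by limma, by the quasi-likelihood test of edgeR or by DESeq2, and 0 were higher at an unadjusted p under 0.05. Each of these tools called the same number lower, 3. The p21 ON libraries lay wholly below the p21 OFF libraries for 3 of the 6 genes, against 21.3% of all genes tested. In bulk RNA, fewer cells in the phases that make a transcript and less of it in each cell cannot be told apart.

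**Figure D1:**
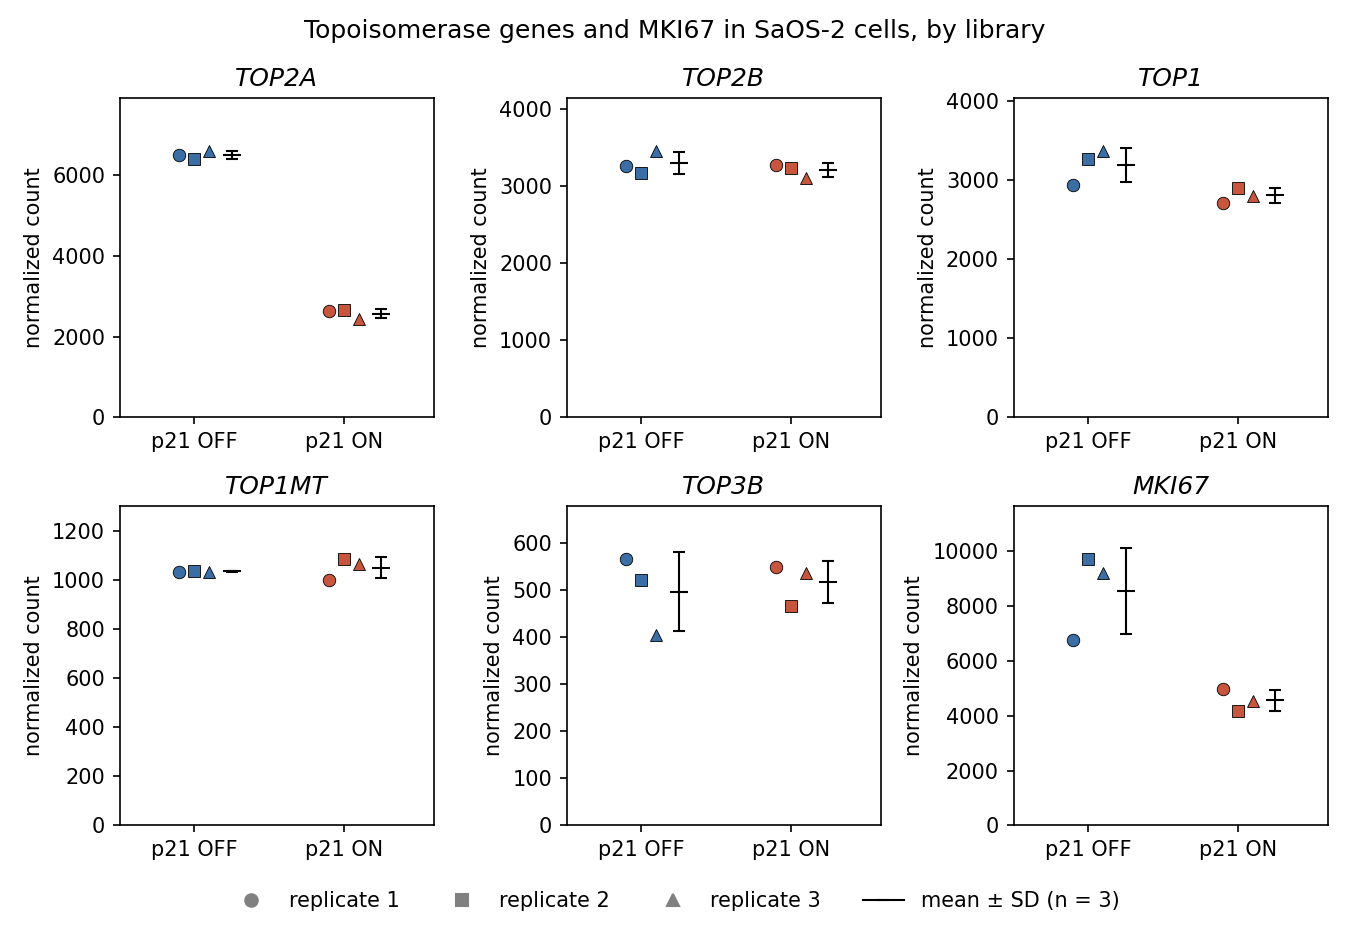
Normalized counts (y axis, from 0) of the 6 genes in the 3 p21 OFF and 3 p21 ON libraries, with a symbol per replicate and the mean ± SD beside the points. The p21 ON points of TOP2A sit between 2439 and 2651 against 6391 to 6588 in p21 OFF libraries, while those of TOP2B overlap.

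TOP2A, on chromosome 17 from 38544777 to 38574148 on the minus strand, had 6489, 6391 and 6588 normalized counts in p21 OFF replicates 1 to 3. In p21 ON replicates 1 to 3 it had 2623, 2651 and 2439. The groups were far apart and each was tight, with the highest library of a group at most 1.09 times the lowest. The log2 fold change was -1.34 (standard error 0.06, 95% interval -1.46 to -1.21, limma adjusted p = 2.07e-11, Benjamini-Hochberg), a level 0.396 times that of p21 OFF cells. With 3 libraries against 3, two-sided exact permutation gave p = 0.1, the lowest value it can reach. Its log2 fold change ranked 61 from the lowest of the 13255 genes.

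TOP2B, on chromosome 3 from 25639469 to 25706400 on the minus strand, had 3272, 3173 and 3457 normalized counts in the p21 OFF libraries. The p21 ON libraries had 3283, 3245 and 3108. The values of the groups were interleaved. The log2 fold change was -0.04 (SE 0.06, limma adjusted p = 0.668), and its 95% interval ran from -0.16 to 0.09, or from 0.893 to 1.06 times the p21 OFF level. The sign turned to 0.0052 under scaling by library size alone. When a trend with the exonic length was taken out of each library, TOP2B was called lower at -0.18 (limma adjusted p = 0.0278), and with the length of the canonical transcript in its place, an alternative chosen after seeing the data, it was -0.12 and not called (limma adjusted p = 0.0997).

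The difference between the type II genes was tested as a ratio within each library, which a scaling factor for a whole library cannot move. TOP2A had 1.98, 2.01 and 1.91 normalized counts for each TOP2B count in p21 OFF replicates 1 to 3. In p21 ON replicates 1 to 3 the ratio was 0.799, 0.817 and 0.785. These are ratios of counts not divided by gene length, and the p21 ON values lay below all p21 OFF values. On the log2 scale the ratio went from 0.98 ± 0.04 to -0.32 ± 0.03 (SD, n = 3 each; two-sided exact permutation, p = 0.1, the lowest value in reach, and 0.133 after adjustment over the 4 ratios computed). When limma was run on the log2 ratio of each of the other 13254 genes to TOP2B, TOP2A changed by -1.30 (95% interval -1.45 to -1.14, limma adjusted p = 2.20e-15). Leaving out each library in turn kept this difference between -1.32 and -1.28. With the exonic length trend taken out it was -1.19 (limma adjusted p = 3.18e-10), an alternative for the ratio that was chosen after seeing the data. All ratios in these fits share the TOP2B values, so their genes are not independent and the limma p-values may be too small.

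MKI67, on chromosome 10 from 129894923 to 129924687 on the minus strand, had 6773, 9710 and 9206 normalized counts in p21 OFF replicates 1 to 3. It had 4965, 4188 and 4522 in the p21 ON libraries. The groups did not overlap, but p21 OFF replicate 1 lay well below the other p21 OFF libraries, and the highest p21 OFF library was 1.43 times the lowest. The log2 fold change was -0.90 (standard error 0.10, 95% interval -1.11 to -0.69, limma adjusted p = 3.46e-06), a level 0.538 times that of p21 OFF cells. Among 6466 genes whose mean reached 500, 99.1% had a residual SD no larger than that of MKI67, 0.22 on the log2 scale, against 15.9% for TOP2A. The standard errors, intervals and p-values of limma draw on the spread of other genes. For MKI67 they therefore understate its own spread between libraries.

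The canonical MKI67 transcript has 12716 bases, and p21 OFF replicate 1 differed from the other p21 OFF libraries by transcript length. In that library the median log2 difference from the mean of the other p21 OFF libraries was 0.14 for the 2894 genes with transcripts up to 2000 bases and -0.21 for the 1173 genes over 8000 bases. MKI67 was at -0.48 there, ranked 461 from the lowest of 13255 genes, and TOP2A was at 0.0001. The quartiles of the genes over 8000 bases were -0.35 and -0.06, so MKI67 lay below both. The reason was not tested. Without p21 OFF replicate 1 the log2 fold change of MKI67 was -1.06 (limma adjusted p = 7.65e-18), and over all 6 left-out libraries it ran from -1.06 to -0.80. Between the conditions, genes over 8000 bases had a median log2 fold change of 0.16 and genes up to 2000 bases one of -0.13, by canonical transcript length. With a trend in exonic length taken out of each library MKI67 was at -1.004 (limma adjusted p = 4.54e-10), and with one in canonical length, chosen after seeing the data, at -1.11 (limma adjusted p = 1.69e-12).

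MKI67 and TOP2A are both on the high-stringency G2/M list of the study, and their falls were compared as a ratio. For each TOP2A count there were 1.04, 1.52 and 1.40 MKI67 counts in p21 OFF replicates 1 to 3. In the p21 ON libraries there were 1.89, 1.58 and 1.85, each above every p21 OFF value. The difference in the log2 ratio was 0.44, from 0.38 ± 0.28 to 0.82 ± 0.14 (SD, n = 3 each; two-sided exact permutation, p = 0.1, and 0.133 after adjustment over the 4 ratios). Without p21 OFF replicate 1 the change was 0.28. The transcripts of these genes differ in length. With the exonic length trend taken out, the log2 fold changes were -1.004 for MKI67 and -1.36 for TOP2A. With the canonical length trend taken out, chosen after seeing the data, they were -1.11 and -1.41.

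**Figure D2:**
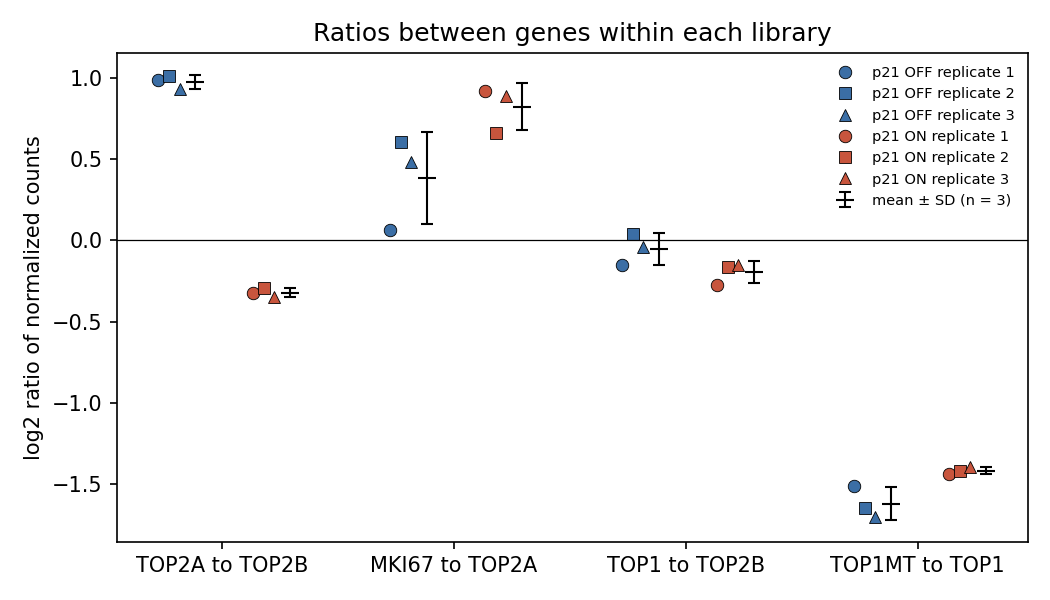
Log2 ratio of normalized counts (y axis) for 4 gene pairs within each library, with a symbol per replicate, p21 OFF in blue and p21 ON in red, and the mean ± SD (n = 3). The TOP2A to TOP2B ratio lies near 0.98 in p21 OFF libraries and near -0.32 in p21 ON libraries.

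TOP1, on chromosome 20 from 39657462 to 39753127 on the plus strand, had 2941, 3260 and 3362 normalized counts in p21 OFF cells, and 2712.5, 2901 and 2800 with p21 induced. The highest p21 ON library lay just under the lowest p21 OFF library. The log2 fold change was -0.18 (standard error 0.06, 95% interval -0.32 to -0.05, limma adjusted p = 0.0452), or 0.881 times the p21 OFF level. The call was lost without any of the libraries other than p21 OFF replicate 1 (adjusted p = 0.0588 to 0.189 from limma) and under scaling by library size alone, where the log2 fold change was -0.14 (limma adjusted p = 0.108). It was kept with the exonic length trend taken out, at -0.27 (limma adjusted p = 0.00119). With the canonical length trend taken out, chosen after seeing the data, TOP1 was at -0.21 (limma adjusted p = 0.00827). TOP1 is on the study's low-stringency G2/M list. The TOP1 to TOP2B ratio overlapped between the groups, with a log2 difference of -0.14 (two-sided exact permutation, p = 0.2). Reads of TOP1 may be shared with its pseudogene TOP1P1, which had 187 ± 12.5 and 173 ± 13.8 normalized counts (SD, n = 3) in p21 OFF and p21 ON libraries.

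TOP1MT, the mitochondrial enzyme, lies on chromosome 8 from 144386554 to 144442149 on the minus strand. It had 1032, 1038 and 1033 normalized counts in p21 OFF cells, and 1001, 1084 and 1065 with p21 induced. The p21 ON values surrounded the p21 OFF values. The log2 fold change was 0.02 (95% interval -0.11 to 0.16, limma adjusted p = 0.842), and its sign turned without p21 ON replicate 2, at -0.0027, and with the exonic length trend taken out, at -0.0084. The log2 ratio of TOP1MT to TOP1 had its lowest p21 ON value above its highest p21 OFF value, and the means differed by 0.20 (two-sided exact permutation, p = 0.1, the lowest value in reach, and 0.133 after adjustment over the 4 ratios).

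TOP3B, on chromosome 22 from 22311397 to 22337210 on the minus strand, had 566, 522 and 404 normalized counts in p21 OFF cells, and 549.5, 467 and 538 with p21 induced. The groups overlapped, and the highest p21 OFF library was 1.40 times the lowest. The log2 fold change was 0.07 (95% interval -0.15 to 0.29, limma adjusted p = 0.671), with a sign that turned to -0.07 without p21 OFF replicate 3. Of the 6466 genes whose mean reached 500, 98.5% had a residual SD no larger than that of TOP3B, 0.20 on the log2 scale. As for MKI67, the limma interval therefore understates its own spread between libraries. Exons annotated on the opposite strand, those of PPM1F-AS1, cover 90.8% of the exonic length of TOP3B. The libraries were stranded, but the strand setting of the counting is not given in the sources used here, so reads of these genes may be mixed.

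**Figure D3:**
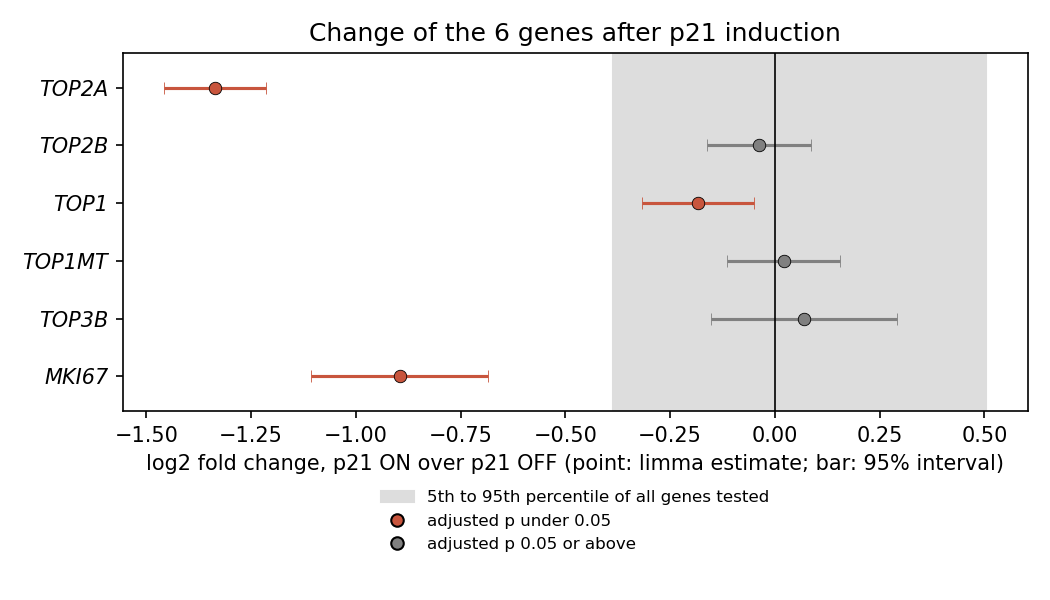
Log2 fold change of the 6 genes (x axis, limma estimate with 95% interval), red where the adjusted p-value is under 0.05 and grey otherwise, with the 5th to 95th percentile of all genes tested shaded from -0.39 to 0.50. TOP2A and MKI67 lie outside the shaded range, and TOP1 inside it.

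Levels of different genes were compared per length, as reads per kilobase of exon for every 1000000 reads on genes. With the union of all annotated exons as length, TOP2A had the highest level in p21 OFF cells, at 62.8 ± 1.23 (SD, n = 3). MKI67 followed at 41.1 ± 7.23, TOP1 at 19.4 ± 1.21, TOP2B at 10.9 ± 0.499, TOP1MT at 9.93 ± 0.0596 and TOP3B at 4.62 ± 0.797, and no neighbours in this order overlapped. The p21 ON levels were 25.6 ± 1.24 for TOP2A, 22.6 ± 2.01 for MKI67, 17.6 ± 0.549 for TOP1, 11.0 ± 0.363 for TOP2B, 10.4 ± 0.392 for TOP1MT and 4.96 ± 0.436 for TOP3B. TOP2A overlapped MKI67 there, and TOP2B overlapped TOP1MT. On this length scale TOP2A made up 85.2% ± 0.362 of the summed level of the type II genes in p21 OFF cells and 70.1% ± 0.424 in p21 ON cells (SD, n = 3 each).

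The order moved with the length used. The exon union, the longest transcript and the canonical transcript have 6374, 5695 and 5695 bases for TOP2A, 18645, 7848 and 5814 for TOP2B, 10127, 8092 and 3734 for TOP1, and 6425, 2029 and 1942 for TOP1MT. With the longest transcript, TOP2A led in p21 OFF cells at 70.3 ± 1.38, above MKI67 at 41.5 ± 7.30, TOP1MT at 31.4 ± 0.189, TOP2B at 25.9 ± 1.19 and TOP1 at 24.3 ± 1.52 (SD, n = 3 each). The last pair overlapped, at 24.7 to 27.1 for TOP2B and 22.6 to 25.6 for TOP1. In p21 ON cells TOP1MT was then highest at 32.9 ± 1.24, and TOP2A at 28.7 ± 1.39 stayed above TOP2B at 26.0 ± 0.863 and TOP1 at 22.0 ± 0.687, with no overlap. On that length the TOP2A share of the type II genes was 73.05% ± 0.563 in p21 OFF cells and 52.4% ± 0.505 in p21 ON cells.

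With canonical lengths, an alternative chosen after seeing the data, TOP2A was still first in p21 OFF cells at 70.3 ± 1.38 (SD, n = 3), above TOP1 at 52.6 ± 3.29, MKI67 at 41.5 ± 7.30 and TOP2B at 35.0 ± 1.60. MKI67 overlapped TOP2B through p21 OFF replicate 1, at 33.1. In p21 ON cells TOP2A was at 28.7 ± 1.39, below TOP1 at 47.7 ± 1.49, TOP2B at 35.1 ± 1.17 and TOP1MT at 34.4 ± 1.30, of which the last pair overlapped. The TOP2A share of the type II genes was then 66.8% ± 0.635 in p21 OFF cells and 45.0% ± 0.501 in p21 ON cells (SD, n = 3 each).

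Over the 6 libraries, the pattern of a gene was taken as its log2 level minus its p21 OFF mean, and likeness as the root mean square difference from the pattern of a member, among genes with a mean of at least 100. This describes the same contrast again and is no test. Nearest to TOP2A among 10441 other genes were BUB1, a spindle checkpoint kinase, at 0.0257, KIF15, a spindle kinesin, at 0.0345 and DLGAP5, a spindle assembly factor, at 0.0407. Nearest to MKI67 were GAS2L3, a protein of cytokinesis, at 0.0951, STIL, a centriole duplication factor, at 0.107 and C1orf112 at 0.134. MKI67 was the 175th nearest of the 10441 genes to TOP2A, at 0.362, with the low p21 OFF replicate 1 value of MKI67 included. Nearest to TOP2B were PRPF18, a splicing factor, at 0.0093, the interferon receptor gene IFNAR1 at 0.0099 and KIAA1143 at 0.015.

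Further genes of the family and of its partners were counted by list, here and in the paragraphs that follow. The lists were chosen with earlier results of these data known. Their counts beside the shares over all genes therefore describe and do not test. TOP3A, the other type IA enzyme and on the study's low-stringency G1/S list, rose from 715, 921 and 903 to 1044, 1059 and 1033 normalized counts, or by 0.31 in log2 (limma adjusted p = 0.0126). Without p21 OFF replicate 1 it was 0.20 (adjusted p = 0.0228), and it was not called without p21 ON replicate 1 (0.31, adjusted p = 0.0525) or p21 ON replicate 3 (0.32, limma adjusted p = 0.0523). With TOP3A counted, the family held 1 gene higher, 2 lower and 3 not called, where 10.5% of all genes tested were higher and 12.7% lower, with a median log2 fold change of -0.0089 against 0.0056 over all genes tested. SPO11, the meiotic member, was not tested, with reads in 1 library alone.

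Of 13 partners and repair genes of topoisomerases, all tested, 4 were lower, 0 were higher and 9 were not called, beside 12.7% lower and 10.5% higher over all genes tested. Their median log2 fold change was -0.07, and that of all genes 0.0056. BLM, the helicase that acts with TOP3A, fell from 391 ± 16.4 to 181 ± 12.7 normalized counts (SD, n = 3 per group), with a log2 change of -1.10 (limma adjusted p = 5.17e-08). TDP1, which removes trapped TOP1 from DNA ends, fell by 0.38 on the log2 scale (adjusted p = 0.00205), TOPBP1 by 0.20 (adjusted p = 0.0205) and RMI2, which joins BLM and TOP3A in a complex, by 0.43 (limma adjusted p = 0.0478). RMI2 was not called by edgeR (adjusted p = 0.0576) or DESeq2 (adjusted p = 0.151). TDRD3, the partner of TOP3B, stood at -0.05 in log2 (limma adjusted p = 0.676), and TDP2, which removes trapped type II enzymes, stood at 0.02 (limma adjusted p = 0.891).

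Of 7 partners of Ki-67 and proteins of the chromosome periphery, 5 were lower, 0 were higher and 2 were not called, against a background of 12.7% lower and 10.5% higher. The median of the list was -0.35 and that of all genes tested 0.0056. KIF15, which binds Ki-67, fell from 581 ± 12.0 to 232 ± 15.8 normalized counts (SD, n = 3 per group), with a log2 change of -1.32 (limma adjusted p = 1.06e-09). CDCA2, which like Ki-67 brings protein phosphatase 1 to chromosomes, fell from 285 ± 9.03 to 116 ± 7.08, with a log2 change of -1.29 (limma adjusted p = 2.33e-08). NIFK, which binds the forkhead-associated domain of Ki-67 and is listed under its older symbol MKI67IP, fell by 0.41 on the log2 scale (adjusted p = 0.00826), and without p21 ON replicate 3 it was at -0.28 and not called (limma adjusted p = 0.0626). The phosphatase genes PPP1CC and PPP1CA fell by 0.35 and 0.19 (adjusted p = 0.00105 and 0.0327 from limma).

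Among the 8 condensin genes and KIF4A, a chromosome kinesin that acts with condensin, 8 were lower, 0 were higher and 1, NCAPH2, was not called, while 12.7% of all genes tested were lower and 10.5% higher. Their median log2 fold change was -0.86, next to 0.0056 over all genes. Condensin compacts mitotic chromosomes together with TOP2A. NCAPH fell by 1.50 on the log2 scale, KIF4A by 1.41, NCAPG by 1.24 and SMC4 by 1.01 (adjusted p at most 2.99e-10 for each, limma). For SMC4 this was 13734, 13593 and 13427 normalized counts in p21 OFF libraries and 7007, 6806 and 6437 in p21 ON libraries. The rest of the list changed less, with NCAPD2 at -0.86, SMC2 at -0.49, NCAPG2 at -0.45, NCAPD3 at -0.23 and NCAPH2 at -0.09 on the log2 scale.

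**Figure D4:**
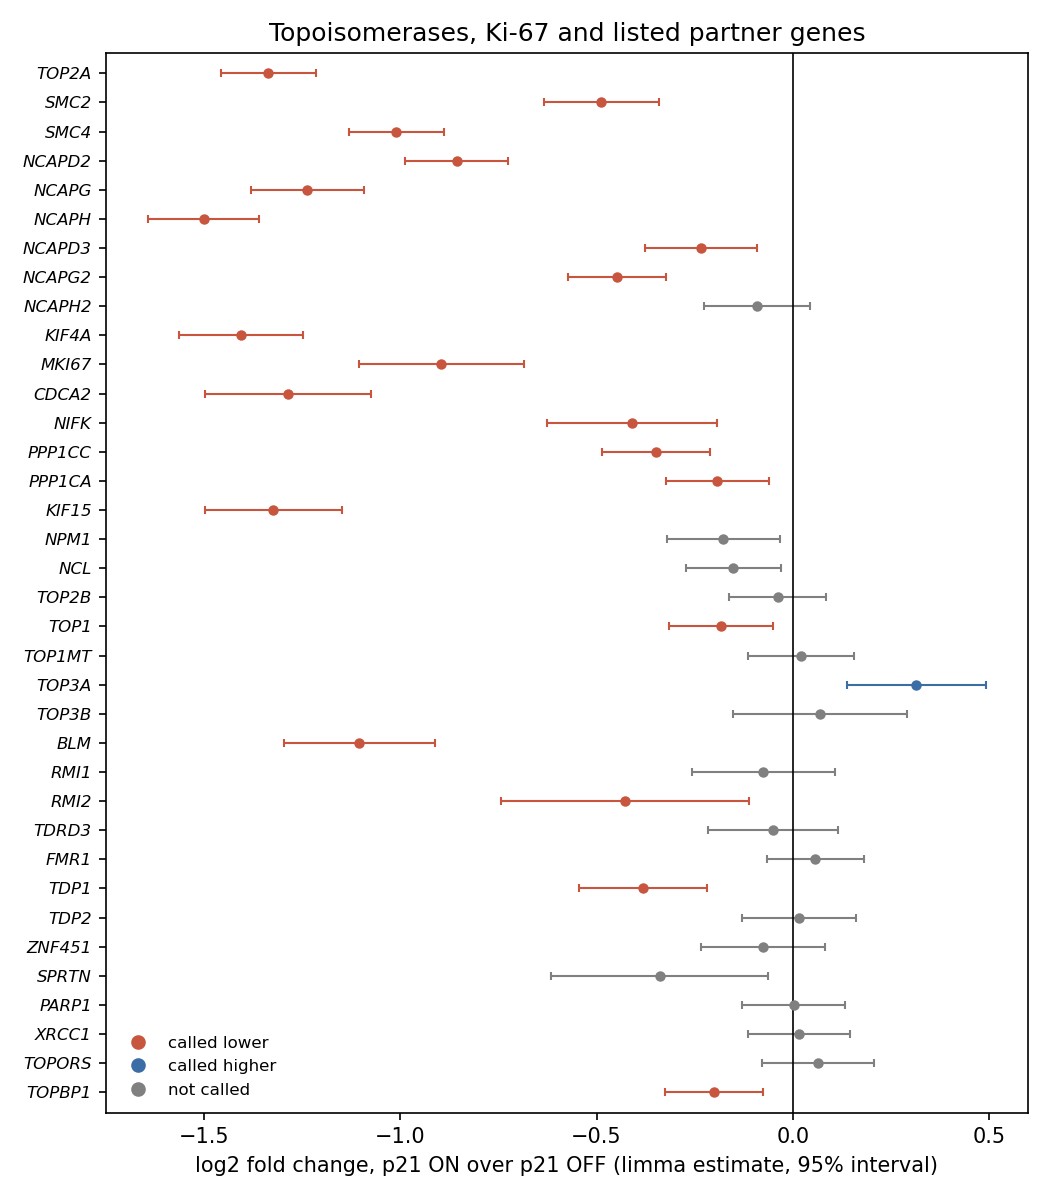
Log2 fold change (x axis, limma estimate with 95% interval) of the topoisomerase genes, MKI67 and the listed partner genes, with red for genes called lower, blue for genes called higher and grey for genes not called. Most condensin genes lie on the side of TOP2A, and TOP3A is the gene called higher.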

How the data were processed

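RNA of 6 libraries of SaOS-2 cells was sequenced by the authors. They made stranded mRNA libraries, aligned single-end reads with STAR on hg19, counted by gene name with HTSeq and divided by DESeq2 size factors, and the deposited values are these normalized counts, a signal of 0 or above. Tool versions are not given in the sources used here. Divided by what 1 read is worth, 100% of the values came out whole (within 0.01 reads), which returned the reads.

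Genes with a mean of at least 10 were tested with limma 3.58.1 (trend) in R 4.3.3 on log2(normalized count + 1), two-sided, with Benjamini-Hochberg adjustment over all genes and a threshold of 0.05; fold changes of weakly expressed genes are understated on this scale. As alternatives, edgeR 4.0.16 and DESeq2 1.42.0 were run on the reads. Other alternatives changed scaling, pseudocount (0.1 and 10), filter, depth and gene length, added a replicate block, or left out each library. The limma code was tested on simulated data. Gene models were GENCODE 44 on GRCh37, to which 20975 of 23228 names were matched, 2065 by an older symbol, partly through RefSeq synonyms.

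Named genes were the members, listed partners past the threshold, TDRD3, NIFK and CDCA2, at most 4 condensin genes, and the 3 genes most like a member. Other names with values, such as TDP2, the remaining condensin genes and single markers, were added after their values were seen. Members and lists were chosen with earlier results of these data known. The study calls the replicates biological; where they share a culture, p-values measure technical spread. TOP3BP1 was not matched, and no TOP1MT promoter is shown.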

Additional observations from a re-analysis of the deposited data

How the results depend on the processing

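Among the 6 genes, TOP2A kept its call and its direction in the 17 alternatives run (log2 fold change -1.41 to -1.29). The TOP2A to TOP2B ratio was run under 12 alternatives and stayed called and below 0 in each (-1.32 to -1.19), the value nearest 0 with the exonic length trend removed, a setting added for the ratio after seeing the data. Without a filter on low values, which brought 23228 genes into the fit, 254 genes were higher and 503 lower, MKI67 was at -0.90 (adjusted p = 0.076) and TOP1 at -0.18, and neither was called. TOP1 was also lost under scaling by library size alone (-0.14) and after thinning to the smallest library (-0.18). With the replicate block TOP1 (-0.18, adjusted p = 0.0736 from limma) was not called either, and the counts were 1407 higher and 1513 lower. No pairing by replicate number was seen: correlations of same-numbered deviations were -0.057, -0.025 and -0.048, and no library was most like its own number. The labels do not say whether same-numbered libraries were paired, and 3 libraries a group are too few to settle it. TOP2B was at 0.0052 under scaling by library size alone and was called at -0.18 with the exonic length trend removed, where TOP1MT was at -0.0084. When libraries were dropped in turn, the genes called higher numbered 692 to 1488 and those called lower 888 to 1662, the lowest without p21 ON replicate 1 and, at 739 and 1076, without p21 ON replicate 3. TOP1 then ran from -0.24 to -0.14, TOP3B from -0.0733 to 0.17 and TOP1MT from -0.0027 to 0.0549. Among partners, the calls of RMI2, TOPBP1, PPP1CA and NCAPD3 were each lost in 5 to 12 alternatives. Why calls were lost or counts moved under these alternatives was not tested.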
